A study of Mus musculus with 36 samples.

Results

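The RNA exosome subunits described here are Exosc1, Exosc2, Exosc3, Exosc4, Exosc5, Exosc7, Exosc8, Exosc9, Exosc10 and Dis3, taken by gene symbol from the 54842 genes counted. All 10 were found, and all 10 were among the 28536 genes kept by a filter on low counts. Total RNA was sequenced in 36 libraries of mouse embryonic fibroblasts (MEF), 12 groups of 3 replicates. Every library came from a male line with a stably inserted PiggyBac plasmid that expressed, from a U6 promoter, a guide RNA against the major satellite repeat (MSR), the DNA repeat of mouse pericentric heterochromatin. The same plasmid carried a doxycycline-inducible, cleavage-dead Cas9, alone in the MSR-dCas9-Control line and fused to the VPR transcriptional activator in the MSR-dCas9-Activator line. Both lines were maintained under hygromycin as mixed cultures, not clones, and doxycycline was given in medium without hygromycin. Samples of each line were taken without doxycycline (uninduced), at the end of a pulse of 10 ng/ml (induced), and then in medium free of the drug for 3, 6, 12 or 24 h. Induction lasted 24 h in the MSR-dCas9-Control and 6 h in the MSR-dCas9-Activator line, so the effector and the length of exposure cannot be told apart in comparisons between the lines from induction on.

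The RNA exosome is the main complex of the nucleus and cytoplasm that degrades and trims RNA from its 3′ end. A ring of PH-like proteins, Exosc4 to Exosc9, is covered by a cap of the S1/KH proteins Exosc1, Exosc2 and Exosc3, and this barrel, which has no nuclease activity of its own in mammals, guides RNA to the nuclease Dis3. Exosc10 is a second, mainly nuclear nuclease that sits at the cap. In the nucleus the complex processes ribosomal and small nucleolar RNA and removes short-lived noncoding transcripts, and in the cytoplasm it takes part in mRNA turnover.

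A library held 27376846 to 57371803 gene counts (median 42865961), and a single subunit received between 154 reads (Exosc7) and 11288 reads (Exosc10) in a library. Levels are given as CPM, read counts scaled to the library size after TMM normalisation. As a check of the labels, GSAT_MM, the repeat family of the MSR, lay between 22.6 and 47.1 CPM in every MSR-dCas9-Control library, between 52.1 and 99.3 CPM in uninduced MSR-dCas9-Activator cells and between 2363 and 47260 CPM in that line from induction on. Of 8 fibroblast markers, the collagens Col1a1 and Col1a2 were abundant in all libraries and Thy1 was near 0 (at most 0.206 CPM). The list summed to 22417 to 23652 CPM in MSR-dCas9-Control and 15024 to 18105 CPM in MSR-dCas9-Activator cells at 12 h, where 5 of 7 tested members were lower and 1 was higher between the lines. Endothelial markers summed to 0.590 to 0.816 CPM and 36.04 to 42.2 CPM in the same groups, with 4 of 4 higher, while epithelial markers summed to at most 3.54 CPM and immune markers to at most 8.85 CPM in any library. The part of these shifts in the results below was not tested, and in bulk samples fewer cells of a type and less RNA per cell cannot be told apart.

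Replicate 2 was often the lowest for these genes, more often in the MSR-dCas9-Activator line. There it held the lowest of the 3 values in 44 of 60 combinations of subunit and time point (30 of 60 in the MSR-dCas9-Control line). It was lowest at all 6 time points for Exosc1, Exosc2, Exosc5, Exosc9, Exosc10 and Dis3. In the MSR-dCas9-Control line it was lowest at all 6 for Dis3, at 5 for Exosc1 and Exosc9, at 4 for Exosc2, at 3 for Exosc10 and at 2 for Exosc5. Exosc4 and Exosc7 did not follow this order in the MSR-dCas9-Activator line, with replicate 2 lowest at none of the 6. Differences between the lines and changes within them are therefore given with all replicates and without replicate 2.

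Before the lines are compared, the levels per length show how the subunits stand to each other in uninduced MSR-dCas9-Control cells. With the union of all annotated exons as length, Exosc10 was the highest at 29.8 ± 1.04 RPKM, CPM divided by length in kilobases (SD, n = 3), followed by Exosc2 at 19.0 ± 0.817 and Dis3 at 15.5 ± 1.01 (SD, n = 3 each), and the ranges of these 3 did not overlap. Exosc9 (12.9 ± 0.376) and Exosc1 (11.5 ± 1.17) did not differ beyond their spread, nor did Exosc8 (9.64 ± 0.606), Exosc3 (9.44 ± 1.55) and Exosc4 (9.11 ± 1.65), all SD with n = 3. Exosc7 (3.96 ± 0.251) and Exosc5 (3.70 ± 0.418) were the lowest and overlapped (SD, n = 3). The order depended on the length. With the longest protein-coding transcript, Exosc7 stood at 22.6 ± 1.44 (SD, n = 3), because its exon union is 6013 bases and that transcript 1053 bases, and Exosc9 (37.7 ± 1.10) reached the range of Exosc10 (38.3 ± 1.34, SD, n = 3 each). The nuclease Exosc10 was first and the ring subunit Exosc4 among the lowest 3 under both lengths.

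**Figure D1:**
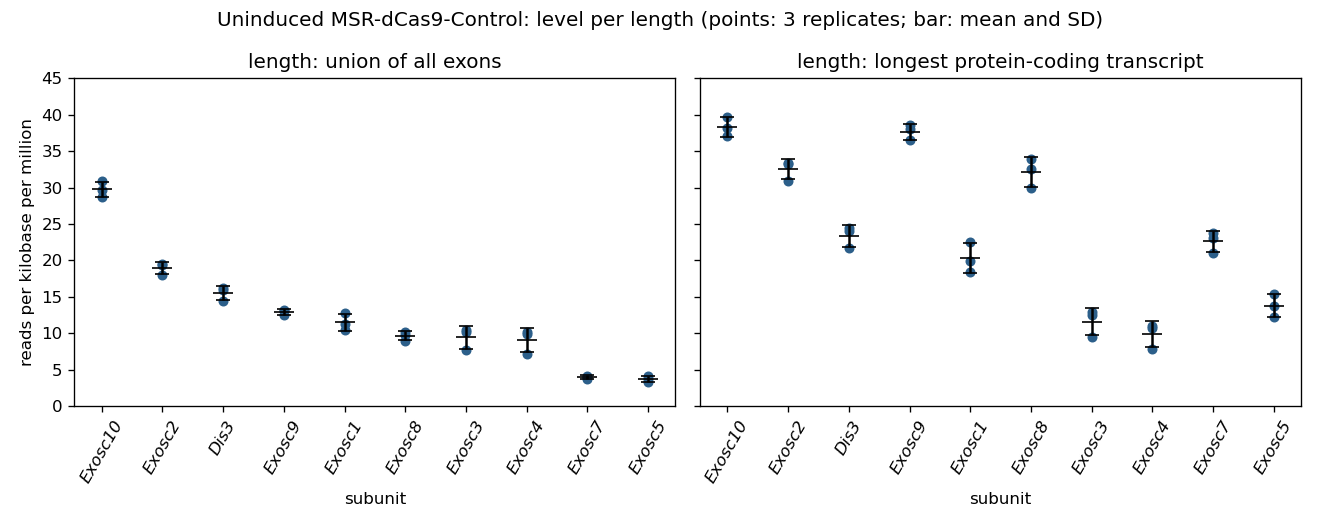
RPKM (y axis) of the 10 subunits (x axis) in the 3 uninduced MSR-dCas9-Control libraries, with the union of exons (left) or the longest protein-coding transcript (right) as length. Points are replicates, and bars are the mean and SD. Exosc10 is first in both panels, while Exosc7, Exosc8 and Exosc9 move up in the order in the right panel.

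The first comparison asks whether the lines already differed before induction. In uninduced cells 0 of 10 subunits passed an adjusted p-value of 0.05 (quasi-likelihood test of edgeR, Benjamini-Hochberg adjustment over all genes tested). Of all genes, 0.883% passed as higher in MSR-dCas9-Activator cells and 0.343% as lower. Of the 10, 2 had an unadjusted p-value under 0.05, and DESeq2 called 1 of 10. The subunit concerned was Exosc2, an RNA-binding cap protein, which had 47.9, 35.4 and 37.0 CPM in the MSR-dCas9-Activator replicates and 56.4, 52.1 and 56.1 CPM in the MSR-dCas9-Control replicates. All 3 MSR-dCas9-Activator values were below all 3 MSR-dCas9-Control values, a log2 fold change of -0.46 (standard error 0.12, edgeR adjusted p = 0.0513). Over the other settings this value lay between -0.47 and -0.43, and it passed the threshold under 4 of them and without replicate 1, replicate 2 or uninduced MSR-dCas9-Activator replicate 1. For the other 9 subunits the difference before induction lay between -0.24 (Exosc1) and 0.06 (Exosc3).

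From induction on, Exosc10 was higher in MSR-dCas9-Activator cells at every time point, Dis3 was not called, and the number of lower subunits went from 4 of 10 after induction to 8 of 10 at 12 h. After induction 1 of 10 was higher and 4 were lower, against 31.7% and 25.5% of all genes. Of these 4, Exosc1 and Exosc2 had stood at -0.24 and -0.46 before induction, without a call. At 3 h 1 was higher and 5 were lower (39.6% and 31.4% of all genes), and at 6 h 1 was higher and 6 were lower (40.8% and 33.3%). At 12 h 1 was higher and 8 were lower (41.1% and 34.1%), and at 24 h again 1 was higher and 8 were lower (34.5% and 29.4%). The median log2 fold change of the 10 subunits was -0.14, -0.16, -0.28, -0.33, -0.58 and -0.41 from uninduced to 24 h, beside -0.02, -0.07, -0.11, -0.18, -0.29 and -0.30 for the 13628 genes with a mean count above 100. Without replicate 2, 2 subunits were higher and 1 lower after induction, 4 were higher and 2 lower at 3 h, 2 were higher and 3 lower at 6 h, 1 was higher and 7 lower at 12 h, and 2 were higher and 5 lower at 24 h. Under the same omission, the genes called higher numbered 11347 in induced and 13423, 13209, 12957 and 11940 in 3, 6, 12 and 24 h samples. Those called lower numbered 6321, 7606, 8437, 8975 and 8253 in the same order. The numbers of lower subunits after induction, at 3, 6 and 24 h thus rested in part on replicate 2, whereas at 12 h the number changed by 1. The median over all genes on the log2 scale was 0.10, 0.16, 0.13, 0.12 and 0.01 from induced to 24 h. Without replicate 2 it was 0.27, 0.39, 0.34, 0.28 and 0.19, so the omission moved the typical gene up as well. The median of the genes with a mean count above 100, which was lower with all replicates, was not computed for this omission.

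**Figure D2:**
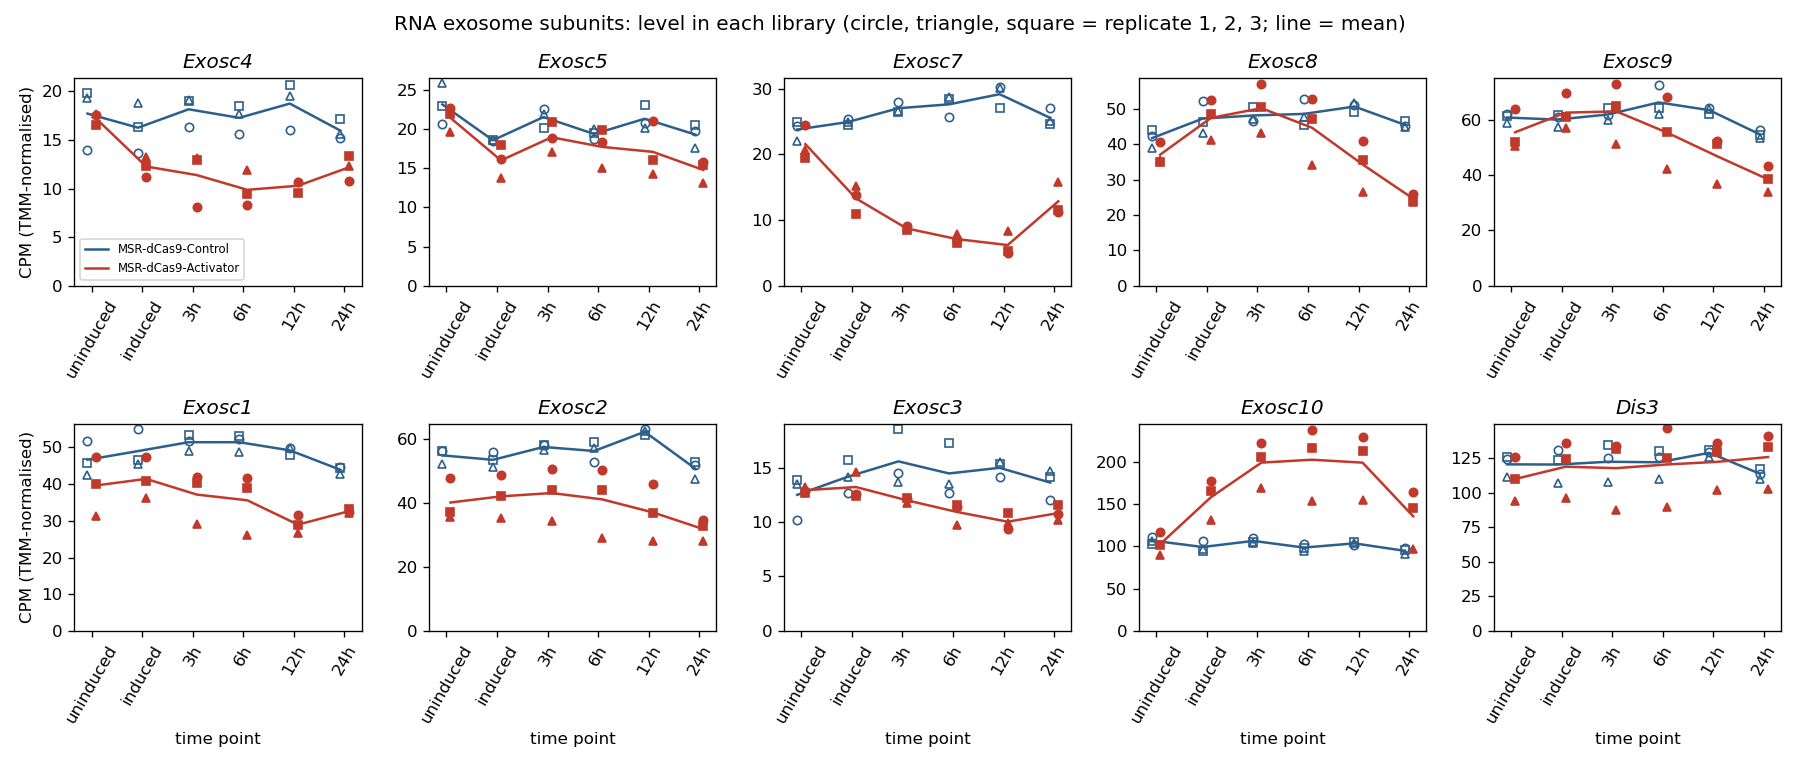
CPM after TMM normalisation (y axis, from 0) of each subunit in all 36 libraries by time point (x axis), red filled for MSR-dCas9-Activator and blue open for MSR-dCas9-Control. Circles, triangles and squares are replicates 1, 2 and 3, and lines join the means of 3. Exosc7 falls away from the blue points from induction on and turns up at 24 h, Exosc10 lies above them, and the red triangles lie lowest in most panels.

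Among the ring subunits, Exosc7 (GRCm38 chromosome 9, 123113215 to 123136129, plus strand) showed the largest difference of the 10 at every time point from induction to 24 h with all replicates. Without replicate 2, Exosc10 stood further from 0 after induction (0.94) than Exosc7 (-0.85). In MSR-dCas9-Activator cells Exosc7 had 24.5, 20.7 and 19.4 CPM uninduced and 13.8, 15.1 and 10.9 CPM induced. The 3 h libraries had 9.06, 8.71 and 8.41 CPM, the 6 h libraries 6.88, 7.84 and 6.54, the 12 h libraries 4.98, 8.27 and 5.29, and the 24 h libraries 11.2, 15.8 and 11.6. The MSR-dCas9-Control values all lay between 22.1 and 30.3 CPM, so the lines overlapped only before induction. The log2 fold change was -0.15 (standard error 0.13) in uninduced and -0.91 (0.13) in induced cells. It grew to -1.63 (0.13) by 3 h, -1.97 (0.13) by 6 h and -2.24 (0.14) by 12 h, which is 0.211 of the MSR-dCas9-Control level (95% interval 0.176 to 0.254, edgeR adjusted p = 3.06e-14 with Benjamini-Hochberg adjustment). By 24 h it was -1.001 (standard error 0.13, edgeR adjusted p = 1.54e-07). Without replicate 2 it was -2.40 at 12 h. By the limits the study used, an adjusted p-value under 0.05, a change of more than 2-fold and a mean normalised count above 100, Exosc7 was lower at 3, 6, 12 and 24 h, as were 9.45%, 10.3%, 10.9% and 4.12% of all genes. No other subunit was lower by these limits. The 24 h value lay just past 2-fold and fell short of it with DESeq2 (-0.86), without replicate 1 (-0.87) or 3 (-0.96), and without MSR-dCas9-Activator replicate 1 (-0.79) or 3 (-0.86) of that time point.

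Exosc4, a ring subunit on chromosome 15 (76327397 to 76330677, plus strand), followed the same course with smaller differences. It had 10.6, 10.6 and 9.58 CPM in MSR-dCas9-Activator and 16.0, 19.6 and 20.7 CPM in MSR-dCas9-Control cells at 12 h. The groups did not overlap, and the difference on the log2 scale came to -0.85 (standard error 0.12, edgeR adjusted p = 2.85e-07). It was -0.40 after induction and -0.40 at 24 h, and neither of these passed without replicate 2 (-0.18 and -0.30). The call after induction also ended without replicate 3 (-0.40), and that at 24 h without MSR-dCas9-Activator replicate 1 of that time point (-0.29) or with DESeq2 (-0.25). Of the exon bases of Exosc4, 19.8% also belong to Oplah on the other strand, and Oplah was higher in MSR-dCas9-Activator cells at 12 h (log2 fold change 1.54). Whether the counting used the strand is not stated, so the part of Oplah in the counts of Exosc4 was not tested.

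The ring subunits Exosc8 (chromosome 3, 54728678 to 54735393, minus strand) and Exosc9 (chromosome 3, 36552606 to 36565727, plus strand) differed late. On the log2 scale Exosc8 stood at 0.00 in induced, 0.05 in 3 h and -0.13 in 6 h samples, none past the threshold. It then reached -0.58 (standard error 0.10) by 12 h and -0.89 (0.10) by 24 h. At 24 h it had 26.0, 23.7 and 24.1 CPM in MSR-dCas9-Activator against 45.1, 44.8 and 46.5 CPM in MSR-dCas9-Control cells (edgeR adjusted p = 3.07e-08), groups that lay far apart with little spread. For Exosc9 the 6 h value was -0.27, where DESeq2 made no call (-0.09), the 12 h value -0.46 and the 24 h value -0.52, with 43.3, 33.8 and 38.5 CPM against 56.4, 53.4 and 54.8 CPM at 24 h (edgeR adjusted p = 6.93e-05). Without replicate 2, Exosc8 and Exosc9 were higher in MSR-dCas9-Activator cells at 3 h (0.35 and 0.34), where the median over all genes was 0.39. With all replicates that median was 0.16, beside -0.11 for genes with a mean count above 100, a set without a median for this omission. Under the same omission Exosc9 was at 0.02 at 6 h, and both were still lower at 12 h (-0.31 and -0.20) and 24 h (-0.75 and -0.32). Of the exon bases of Exosc9, 10.8% overlap those of the cyclin gene Ccna2 on the other strand, which had a log2 fold change of -1.72 at 12 h, and of those of Exosc8, 2.05% overlap Supt20 (-0.89). The part of these overlaps in the counts was not tested.

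Exosc5 (chromosome 7, 25659164 to 25671368, plus strand), the last ring subunit of the list, had the smallest difference of the ring at 12 h. It passed at 12 h (-0.32, standard error 0.11, edgeR adjusted p = 0.0124) and 24 h (-0.39, standard error 0.11, edgeR adjusted p = 0.0043), and at neither time without replicate 2 (-0.15 and -0.24) or without replicate 3 (-0.23 and -0.38). Leaving out MSR-dCas9-Control replicate 3 or MSR-dCas9-Activator replicate 2 or 3 at 12 h, or MSR-dCas9-Activator replicate 3 at 24 h, also ended these calls (-0.20, -0.16, -0.15 and -0.28), as did DESeq2 (-0.11 and -0.24). At 12 h its values of 21.02, 14.2 and 16.1 CPM overlapped the 20.8, 20.2 and 23.1 CPM of MSR-dCas9-Control cells. Exosc6, the remaining PH-like subunit, is outside the list, and all of its exon bases lie within exons of Aars on the same strand, so its counts are uncertain. Its log2 fold change was -1.57 at 12 h, with 1.23, 2.47 and 2.68 CPM against 4.06, 5.69 and 9.65 CPM, while Aars stood at 0.93.

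All 3 cap subunits, RNA-binding proteins at the entry of the barrel, were lower at 12 h, by less than Exosc7. Exosc1 (chromosome 19, 41922292 to 41933423, minus strand) had 31.6, 26.5 and 28.7 CPM in MSR-dCas9-Activator and 49.8, 49.8 and 48.0 CPM in MSR-dCas9-Control cells at 12 h, a log2 fold change of -0.77 (standard error 0.11, edgeR adjusted p = 2.12e-07). Exosc2 (chromosome 2, 31670715 to 31681349, plus strand) had 46.0, 28.1 and 37.0 against 63.0, 62.6 and 61.1 CPM, a change of -0.77 (standard error 0.12, edgeR adjusted p = 1.86e-06). For Exosc3 (chromosome 4, 45316613 to 45342732, minus strand), the cap subunit with the lowest level per length, the values were 9.36, 9.87 and 10.9 against 14.2, 15.5 and 15.3 CPM, a change of -0.58 (standard error 0.11, edgeR adjusted p = 3.69e-05). None of the 3 overlapped between the lines at 12 h, where 75.2% of all genes were called and the share of all genes without overlap was not computed. All 3 stayed lower without replicate 2 (-0.61, -0.50 and -0.46). After induction Exosc1 and Exosc2 were called lower (-0.25 and -0.36), and at 3 h Exosc1, Exosc2 and Exosc3 were called (-0.48, -0.43 and -0.37). None of these 5 calls was kept without replicate 2 (-0.04 and -0.10 after induction, -0.15, -0.09 and -0.23 at 3 h). Before induction Exosc1 and Exosc2 stood at -0.24 and -0.46, neither of them called. With these subtracted, the induced values were -0.002 and 0.10, and neither was called. Both calls after induction (-0.27 and -0.37), those of Exosc2 and Exosc3 at 3 h (-0.45 and -0.24) and that of Exosc3 at 6 h (-0.30) also ended without replicate 3. DESeq2 made no call for Exosc1 and Exosc2 after induction (-0.17 and -0.28) or for Exosc3 at 3 h (-0.23) and 6 h (-0.22). At 6 h Exosc1 was still called without replicate 2 (-0.23), and Exosc2 and Exosc3 were not (-0.09 and -0.21). At 24 h the differences were -0.43, -0.68 and -0.33. Of these, Exosc3 did not pass without replicate 2 (-0.11), without replicate 3 (-0.35) or with DESeq2 (-0.18), and Exosc1 did not pass without MSR-dCas9-Activator replicate 1 of that time point (-0.25). Exosc2 shares 12.4% of its exon bases with the antisense gene Gm13427 (-0.75 at 12 h).

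Of the 2 nucleases of the complex, Exosc10 was higher from induction on and Dis3 was not called. Exosc10 (GRCm38 chromosome 4, 148558429 to 148582401, plus strand) had 116, 90.1 and 102 CPM in uninduced MSR-dCas9-Activator cells, and 177, 131 and 166 in induced cells. The 3 h libraries had 223, 169 and 206 CPM, the 6 h libraries 238, 154 and 216, the 12 h libraries 230, 155 and 212, and the 24 h libraries 165, 96.6 and 146. In MSR-dCas9-Control cells it stayed between 91.2 and 111 CPM. The lines did not overlap from induction to 12 h, and at 24 h MSR-dCas9-Activator replicate 2 fell into the MSR-dCas9-Control range. The log2 fold change was 0.66 (standard error 0.11) in induced cells and 0.89 (0.11) by 3 h. It peaked at 1.02 (0.11) in the 6 h samples, or 2.03-fold (95% interval 1.74 to 2.37, edgeR adjusted p = 5.69e-09). The 12 h value was 0.92 (0.11), and the 24 h value 0.50 (0.11, edgeR adjusted p = 3.84e-04). At 24 h it did not pass without replicate 1 or without replicate 3 (0.36 and 0.43). Without replicate 2 its difference was 0.94 in induced cells, then 1.20, 1.33, 1.18 and 0.81 from the 3 h to the 24 h samples. At 6 h it passed the limits of the study, with 3.6% of all genes higher by those limits. It lay near 2-fold from 3 h to 12 h. The 6 h value fell below 2-fold without replicate 1 (0.93) or 3 (0.96), and the 3 h and 12 h values rose above it with DESeq2 (1.03 and 1.13) as well as without replicate 2.

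Dis3 (chromosome 14, 99075206 to 99099770, minus strand), the nuclease at the bottom of the barrel, was called in neither direction at any time point. It had 136, 102 and 129 CPM in MSR-dCas9-Activator and 130, 126 and 131 CPM in MSR-dCas9-Control cells at 12 h, and the groups overlapped at every time point. The log2 fold change lay between -0.14 (uninduced) and 0.13 (24 h). At 12 h it was -0.09 (standard error 0.10, edgeR adjusted p = 0.396), or 0.939-fold with a 95% interval of 0.824 to 1.07. Its value depended on replicate 2, which gave the lowest Dis3 value at all 6 time points in both lines. Without it Dis3 was called higher in the 3 h (0.24), 6 h (0.25) and 24 h (0.37) samples, where the median over all genes was 0.39, 0.34 and 0.19. With all replicates that median was 0.16, 0.13 and 0.01, and that of genes with a mean count above 100 was lower, at -0.11, -0.18 and -0.30. The latter was not computed without replicate 2. DESeq2 called Dis3 higher at 24 h with all replicates (0.28). Scaled to the 13 mitochondrial mRNAs, Dis3 was called lower at 12 h (-0.69), with the same sign as in the main fit (-0.09). Over the settings that left out no library its 12 h value lay between -0.69 and 0.12. Its sign there thus depended on the setting, and it was called only with mitochondrial scaling.

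**Figure D3:**
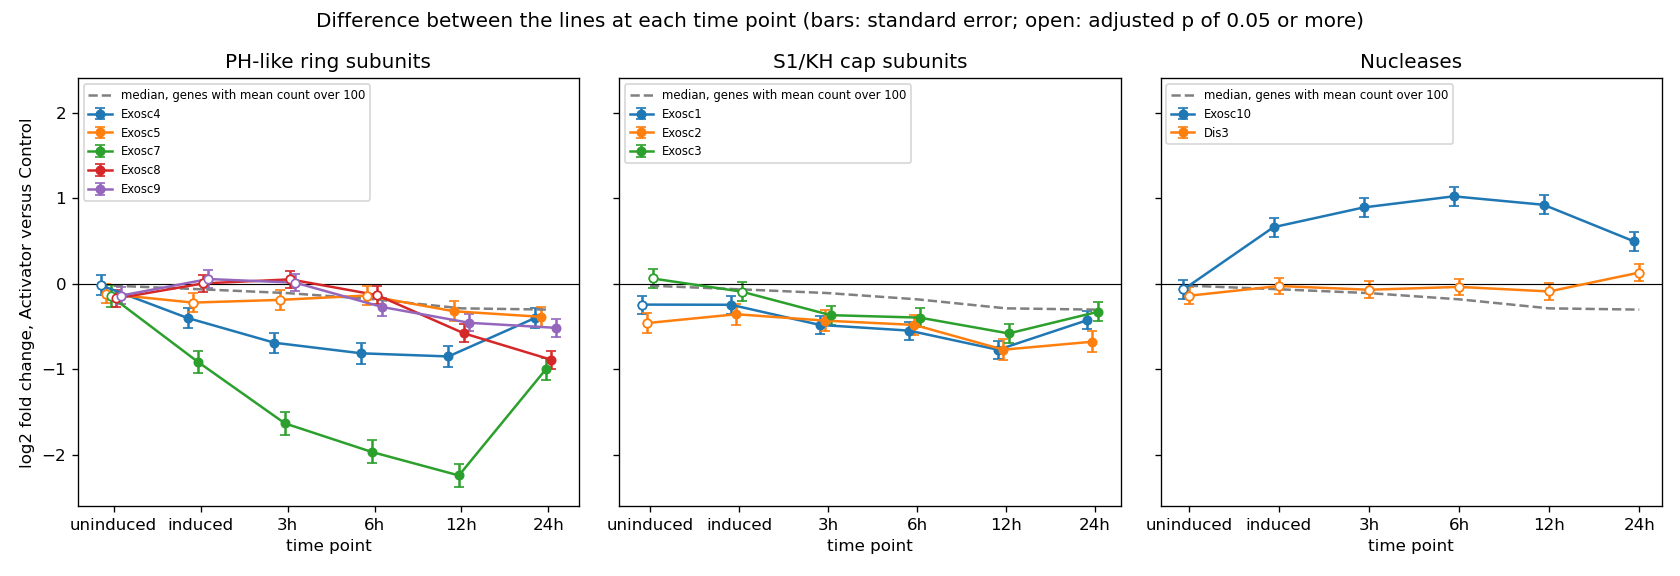
Log2 fold change of MSR-dCas9-Activator against MSR-dCas9-Control (y axis) by time point (x axis) for ring subunits, cap subunits and nucleases. Bars are standard errors, filled points have an adjusted p-value under 0.05, and the dashed line is the median of genes with a mean count above 100. Exosc7 reaches -2.24 at 12 h, the cap subunits stay between -0.77 and 0.06, and Exosc10 peaks at 1.02 at 6 h while Dis3 stays near 0.

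The promoter windows of Exosc7 and Exosc10, which fell and rose most at 12 h, are shown for orientation (RefSeq, GRCm38.p6, plus strand, 250 bases before to 50 bases after the start site). A window was found for 8 of the 10 subunits, and not for Exosc4 and Exosc9. Capitals mark the match to GCGCATG, the core of the NRF1 site, in the Exosc10 window, 22 bases before the start site.
Exosc7, chr9:123112981-123113280: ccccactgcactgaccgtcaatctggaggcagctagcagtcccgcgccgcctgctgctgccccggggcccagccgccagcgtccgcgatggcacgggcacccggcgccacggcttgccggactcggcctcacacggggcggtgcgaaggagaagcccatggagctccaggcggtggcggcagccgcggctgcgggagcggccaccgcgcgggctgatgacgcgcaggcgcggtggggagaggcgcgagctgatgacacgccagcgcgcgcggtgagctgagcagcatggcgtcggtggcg
Exosc10, chr4:148558169-148558468: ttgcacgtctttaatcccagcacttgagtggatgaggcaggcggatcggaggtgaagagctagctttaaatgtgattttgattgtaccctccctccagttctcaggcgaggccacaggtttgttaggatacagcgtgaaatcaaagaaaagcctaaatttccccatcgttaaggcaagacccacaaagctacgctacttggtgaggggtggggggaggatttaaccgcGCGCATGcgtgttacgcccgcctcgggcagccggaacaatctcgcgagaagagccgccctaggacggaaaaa
On either strand, GCGCATG was in 3.91% of 32851 promoter windows and in those of 2 subunits, Exosc10 and Exosc5, where matches on both strands overlap. CCGGAAG (the ETS core, 8.86% of windows) was found for 3 subunits, Exosc3, Dis3 and, in a second window, Exosc10. CCAAT (37.4%) was found for 4, Exosc1, Exosc2, Exosc5 and Dis3, with overlapping matches in Exosc1, and CACGTG (the E-box, 7.15%) for 1, Exosc5. ATGGCGG (YY1-like, 4.05%) and TATAAA (13.6%) were found for 0. The Exosc7 and Exosc8 windows held none of these 6 letter strings.

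To ask whether the lines moved apart from where they stood before induction, the uninduced difference was subtracted at 3 later points. After induction 1 subunit had moved higher (14.5% of all genes) and 1 lower (17.7%), Exosc10 by 0.73 (standard error 0.16) and Exosc7 by -0.77 (0.18). At 12 h 1 had moved higher (23%) and 5 lower (28%). Exosc10 stood at 0.99, Exosc7 at -2.09, Exosc4 at -0.83, Exosc3 at -0.64, Exosc1 at -0.53 and Exosc8 at -0.41. The Exosc8 call was lost in 12 of 23 alternatives, among them DESeq2 (-0.19) and the omission of replicate 2 (-0.11), and the Exosc1 call in 3, with DESeq2 (-0.31), its size factors (-0.31) or no replicate 3 (-0.53). Without replicate 1 the Exosc3 call was lost (-0.49). Exosc2 moved by -0.31 (standard error 0.17), which did not pass (edgeR adjusted p = 0.128). At 24 h 1 had moved higher (14.4%), Exosc10 at 0.56, and 3 lower (18.7%), Exosc7 at -0.85, Exosc8 at -0.72 and Exosc9 at -0.38. The Exosc9 call was lost in 18 of 23 alternatives, among them DESeq2 (-0.22) and the omission of replicate 1, 2 or 3 (-0.35, -0.23 and -0.43). Without replicate 2, the subunits that had moved higher numbered 3 in induced, 1 in 12 h and 2 in 24 h samples, and those that had moved lower 1, 4 and 2. Of all genes, 6474, 7365 and 5863 had then moved higher in the same order and 4880, 7697 and 6240 lower. Leaving out replicate 3 ended both calls after induction. Of all genes, 930 were then called higher and 744 lower, against 4127 and 5050 with all replicates. At 24 h 1 subunit was still called lower without replicate 1 and 2 without replicate 3, and 0 were called higher in either case. In these 2 fits 1638 and 1189 of all genes were higher and 2139 and 975 lower, against 4104 and 5337 with all replicates. Scaled to the mitochondrial mRNAs, Exosc10 was called at none of the 3 points (0.33, 0.33 and 0.34).

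Within each line, calls against uninduced cells were made in the MSR-dCas9-Activator line and not in the MSR-dCas9-Control line when all groups were fitted. In the MSR-dCas9-Control line 0 of 10 passed against uninduced cells after induction, at 12 h and at 24 h with edgeR and 0 with DESeq2, and 1, 3 and 1 had an unadjusted edgeR p-value under 0.05. The shares of all genes called higher and lower there were 0.0526% and 0.161% after induction, 0.161% and 0.89% at 12 h, and 0.242% and 0.547% at 24 h. When only the 2 groups compared were fitted, 2, 4 and 3 subunits of the MSR-dCas9-Control line were called. The shares above are from the fit of all groups. Those of all genes in the smaller fits were not compared, so these counts cannot be set against them. In the MSR-dCas9-Activator line 2 were higher and 3 lower after induction (32.9% and 28% of all genes). Exosc8 (0.35) and Exosc10 (0.62) rose, while Exosc4 (-0.50), Exosc5 (-0.42) and Exosc7 (-0.71) fell. Of these, only Exosc10 and Exosc7 had moved apart between the lines by the test above. Exosc5 fell in the MSR-dCas9-Control line too (-0.32, without a call), and its difference between the lines less that uninduced was -0.10, not called. At 12 h 1 was higher and 6 were lower than uninduced (40.2% and 34.9%), from Exosc10 at 0.95 to Exosc7 at -1.81, and at 24 h 1 was higher and 8 were lower (34.3% and 28.5%), from Exosc10 at 0.39 to Exosc7 at -0.75. The 24 h counts were 0 higher and 5 lower without replicate 1 or without replicate 3, and the 12 h counts were 2 higher and 2 lower with DESeq2. Of all genes, the 2 omissions left 6955 and 7551 higher and 5495 and 4893 lower at 24 h. DESeq2 called 13109 higher and 8133 lower at 12 h. Without replicate 2, the higher subunits numbered 5 in induced, 2 in 12 h and 2 in 24 h samples, and the lower ones 2, 3 and 6. Of all genes, 11465, 12628 and 11781 were then higher in the same order and 7004, 9335 and 8005 lower. With all replicates 9385, 11474 and 9777 were higher and 7979, 9946 and 8139 lower.

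Between 12 h and 24 h the subunits of MSR-dCas9-Activator cells went different ways. Exosc7 rose by 1.05 on the log2 scale (standard error 0.13, edgeR adjusted p = 3.74e-06), from 4.98, 8.27 and 5.29 to 11.2, 15.8 and 11.6 CPM, values that did not overlap. It was the 1 subunit called higher, with 17.5% of all genes. The 3 called lower, with 19.5% of all genes, were Exosc10 (-0.56), Exosc8 (-0.47) and Exosc9 (-0.28). The Exosc9 call was lost in 10 of 17 alternatives and its direction reversed in 1. Whether the difference between the lines changed from 12 h to 24 h was not tested. Without replicate 2 the same 4 subunits were called (Exosc7 at 1.20, Exosc8 at -0.56, Exosc10 at -0.46 and Exosc9 at -0.30). Without replicate 3 of all groups Exosc7 alone was called. Of all genes, 995 were then higher and 744 lower, against 5003 and 5575 with all replicates and 5676 and 4747 without replicate 2.

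The other RNA decay genes, grouped by role, place the subunits in their pathway. Beside the counts that follow, 41.1% of all genes were higher and 34.1% lower at 12 h. Of 16 nuclear exosome cofactors, which deliver RNA to the complex, 1 was higher and 13 were lower at 12 h, with a median log2 fold change of -0.54. Tent4b, a poly(A) polymerase of the TRAMP complex, was lowest (-1.21), and Nop53, a ribosome biogenesis factor, was the 1 higher (0.53). Of 5 cytoplasmic cofactors, 1 was higher (Hbs1l, 0.18) and 4 were lower (Wdr61, a subunit of the Ski complex, -0.89), with a median of -0.38. Of 10 factors of nonsense-mediated decay, which removes mRNAs with early stop codons, 1 was higher (Upf3a, 0.58) and 8 were lower (Upf3b, -2.04), with a median of -0.84. In deadenylation, the removal of the poly(A) tail, 3 of 13 were higher (Cnot3, 0.83) and 9 lower (Cnot6l, -1.56), with a median of -0.57. In decapping and 5′-to-3′ decay 3 of 18 were higher (Dcp1b, 0.92) and 8 lower (Lsm2, -1.79), with a median of -0.15. Of 9 other 3′-to-5′ exonucleases, 2 were higher (Dis3l2, 0.58) and 4 lower (Rexo4, -1.37), also with a median of -0.15. The median of genes with a mean count above 100 was -0.29, and the 10 subunits had -0.58.

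At 24 h 11 of 16 nuclear cofactors, 4 of 5 cytoplasmic cofactors, 6 of 10 factors of nonsense-mediated decay, 10 of 13 deadenylation genes, 10 of 18 decapping genes and 4 of 9 other exonucleases were lower. Only 1 deadenylation gene and 1 exonuclease were higher at that time point. Their medians lay between -0.56 and -0.21, beside -0.41 for the subunits and -0.30 for genes with a mean count above 100, and 29.4% of all genes were lower and 34.5% higher. These lists were counted with all replicates only.

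**Figure D4:**
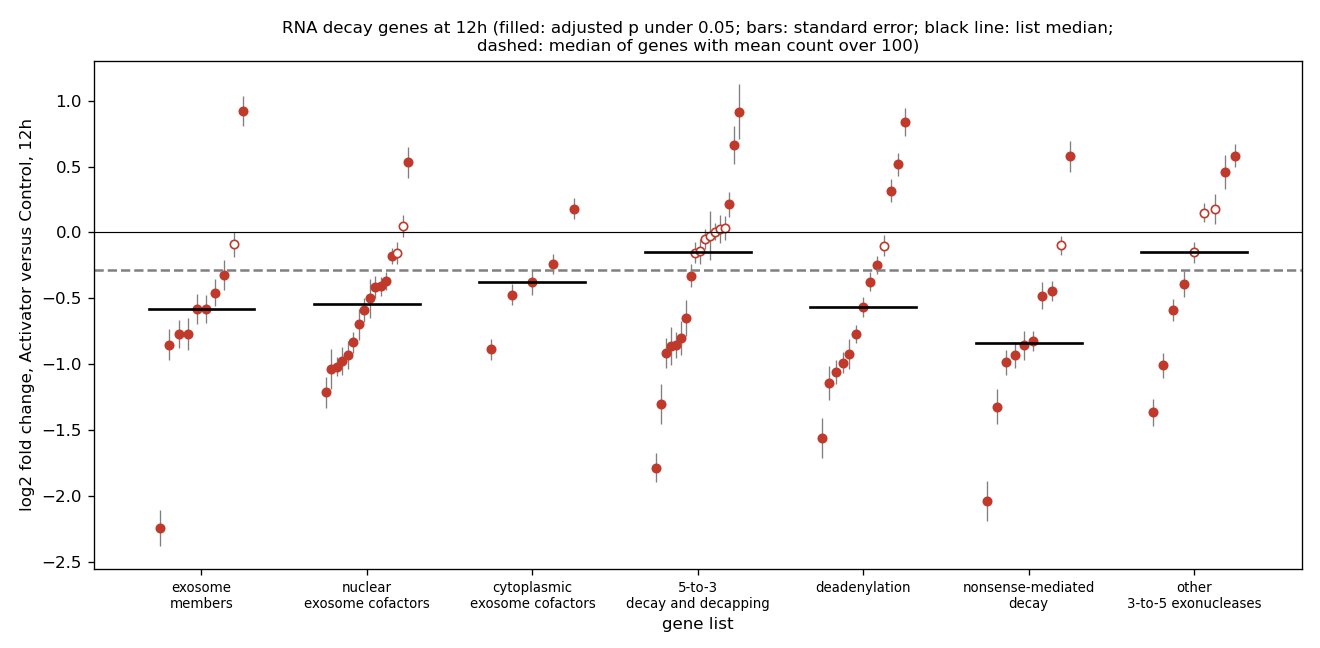
Log2 fold change of MSR-dCas9-Activator against MSR-dCas9-Control at 12 h (y axis) for each gene of 7 lists (x axis), with standard errors. Filled points have an adjusted p-value under 0.05, black lines are list medians and the dashed line is the median of genes with a mean count above 100 (-0.29). The exosome subunits span -2.24 to 0.92.

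Across the 12 group means of log2 CPM, 33 of the 45 pairs of subunits correlated positively (median Pearson r 0.577), a description over groups that share lines and libraries. Exosc4 and Exosc7 (r = 0.972), Exosc8 and Exosc9 (0.943), Exosc1 and Exosc3 (0.942) and Exosc1 and Exosc2 (0.922) were the 4 pairs above 0.9. Exosc10 ran opposite to Exosc7 (-0.967) and Exosc4 (-0.941). Among 13618 genes with a mean count of at least 100, those most like Exosc10 were Rnf10 (0.997), Tmem242 (0.997), Mrpl10 (0.995), Gm11574 (0.993) and Chtop (0.993). Dis3 had no partner as close, with Ptpmt1 (0.846), Nmt2 (0.830), Gm17484 (0.830), 2810004N23Rik (0.823) and Zcchc9 (0.816) first. The mean profile of the 10 subunits was most like Heatr1 (0.987), Ipo7 (0.986), Nt5c3 (0.982), Gemin5 (0.981) and Rcc1 (0.980).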

How the data were processed

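Total RNA depleted of ribosomal RNA was sequenced paired-end from stranded libraries (36 libraries, 12 groups of 3, which the study calls biological replicates). The authors trimmed reads with cutadapt, aligned them to GRCm38 with STAR and deposited raw read counts per gene and repeat family from TEtranscripts. The annotation release, the strand setting and the treatment of reads with several alignments are not given in the sources used here. A single unnamed entry (0.0021 to 0.0045% of counts) was left out, and repeat families stayed out of library sizes and tests. In R 4.3.3, genes were filtered with filterByExpr, scaled by TMM and tested with edgeR 4.0.16 (limma 3.58.1) quasi-likelihood tests in a single fit of 12 groups with replicate number as a block, as in the study's own design, and p-values were adjusted by Benjamini-Hochberg over 28536 genes, with a call at 0.05. Standard errors were derived from the F statistic. The alternatives were DESeq2 1.42.0, its size factors, no TMM, mitochondrial mRNA scaling, repeat counts in the library size, no filter, no block, only the groups compared, and each replicate or library left out.

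Whether the replicate numbers pair the samples was checked by the correlation of deviations from the group means. It exceeded 0.1 in 10 of 18 pairs (-0.00672 to 0.222), so pairing was not shown. Pairs with unlike replicate numbers were not compared, so the check does not decide whether the numbers pair the samples. In simulated counts for the 12 h comparison (26311 genes), 85 of 100 genes changed by 1 on the log2 scale and 35 of 100 changed by 0.5 were recovered, with 5 false calls. The simulation had no replicate effect and changed only these genes, whereas 75.2% of all genes were called at 12 h in the data. Its rates therefore cannot be carried over to the real comparison. Lengths came from GENCODE M21. The text names all 10 subunits and Exosc6, the most raised and most lowered gene of each decay list at 12 h, and the 5 genes most like Exosc10, Dis3 and the mean of the subunits. The subunits and gene lists were chosen with earlier results of these data known.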

Additional observations from a re-analysis of the deposited data

Results flagged for a closer look

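Several subunits differed between the lines by an amount that itself differed from the uninduced difference, by the test of that difference in edgeR. After induction these were Exosc7 (-0.77 on the log2 scale) and Exosc10 (0.73). At 12 h they were Exosc7 (-2.09), Exosc4 (-0.83), Exosc3 (-0.64), Exosc1 (-0.53), Exosc8 (-0.41) and Exosc10 (0.99). At 24 h they were Exosc7 (-0.85), Exosc8 (-0.72), Exosc9 (-0.38) and Exosc10 (0.56). The calls were lost in 12 of 23 alternatives for Exosc8 at 12 h, in 3 for Exosc1 at 12 h, with DESeq2 among them, and in 18 of 23 for Exosc9 at 24 h. Those of Exosc10 were lost in 2, 1 and 4 of 23 after induction, at 12 h and at 24 h. Mitochondrial mRNA scaling was among these each time. Exosc7 lost its call in 1 alternative after induction and 1 at 24 h, and Exosc3 in 1 at 12 h.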

How the results depend on the processing

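Of the values for single subunits under alternatives, 2594 kept their side of the threshold, 214 lost the call and 77 gained one. A further 16 changed direction with a call in either fit. Direction was not compared where neither fit made a call, and the 2594 include the level per length of Exosc4, which stayed within its SD. At 12 h Exosc7 ranged from -2.82 to -2.03 and Exosc10 from 0.30 to 1.13 over the settings that left out no library.

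At 12 h 54.7% of all called genes were higher, beside 62.6% with DESeq2 size factors and 36.7% with mitochondrial mRNA scaling, with all-gene medians of 0.12, 0.33 and -0.49. Mitochondrial scaling called 10 subunits after induction and 10 at 3 h (1 higher, 9 lower each) and 8 between induced and uninduced MSR-dCas9-Activator cells. Under it Exosc10 was not called in the difference less that uninduced after induction, at 12 h or at 24 h (0.33, 0.33 and 0.34). The all-gene medians there were -0.32, -0.57 and -0.24. Within the MSR-dCas9-Activator line Exosc10 was not called against uninduced after induction (0.05) or at 24 h (0.19), beside all-gene medians of -0.49 and -0.17. Mitochondrial scaling reversed Exosc8 (-0.36) and Exosc9 (-0.32) after induction, Exosc8 (-0.55) and Exosc9 (-0.59) at 3 h, and Dis3 in the 12 h difference less that uninduced (-0.59). In MSR-dCas9-Activator cells it reversed induced against uninduced for Exosc1 (-0.50), Exosc2 (-0.51), Exosc3 (-0.55), Exosc8 (-0.22), Exosc9 (-0.40) and Dis3 (-0.46), 12 h against uninduced for Dis3 (-0.34), and 24 h against 12 h for Exosc9 (0.0504). Without replicate 2, Dis3 reversed at 3 h (0.24) and 6 h (0.25) and Exosc9 at 6 h (0.0199). Over all such omissions Dis3 lay from -0.15 to 0.24 at 3 h and -0.17 to 0.25 at 6 h, and Exosc9 from -0.37 to 0.0199 at 6 h. The cause was not tested.

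In uninduced cells 1 subunit was called without TMM, without the filter, with DESeq2 and with only the groups compared. After induction 3 were called with DESeq2, 3 with its size factors and 3 without the replicate block. Without the block 2 were called in the 24 h difference less that uninduced. DESeq2 and its size factors called 4 each at 12 h against uninduced in the MSR-dCas9-Activator line. With only the groups compared, 4 were called at 6 h and 5 at 24 h between the lines. In the MSR-dCas9-Activator line it gave 3 at 12 h and 5 at 24 h against uninduced and 2 at 24 h against 12 h, and in the MSR-dCas9-Control line 2, 4 and 3. The shares of all genes called in these smaller fits were not compared.

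With each replicate or library left out, the lines differed in 0 to 1 subunits when uninduced, 2 to 5 when induced, and 4 to 6, 5 to 7, 8 to 9 and 6 to 9 in the 3, 6, 12 and 24 h samples. The difference less that uninduced gave 0 to 4, 4 to 7 and 1 to 6 in induced, 12 h and 24 h samples. The MSR-dCas9-Activator line gave 4 to 7, 5 to 7 and 5 to 8 against uninduced and 1 to 4 between 12 h and 24 h, and the MSR-dCas9-Control line gave 0 throughout. Where a group kept 2 libraries, the spread was pooled over all groups. Exosc7 had the fewest reads (from 154 per library).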
